A study of Mus musculus with 12 samples.

Results

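The response to isoproterenol (iso) that cardiac macrophages (Mφ) showed at both infusion times was measured by RNA sequencing of sorted cells from 8 iso-infused and 4 saline-infused mice. All 12 libraries of the series took part. The 8 libraries labelled with an iso pump, 4 of them from 14-day and 4 from 28-day infusions, formed one side of the comparison, and the 4 libraries labelled with a saline pump formed the other. All mice were of the C57BL6/J strain and, per the methods of the study, male, and each gave 1 library. The control group (Ct) carried a saline pump. The methods give 14 or 28 days for vehicle pumps too, without saying which of these applied to each Ct library. The early concentric hypertrophy group (ECH) received iso at 30 mg/kg/day for 14 days and the heart failure group (HF) received the same daily dose for 28 days. Mφ were taken from collagenase-digested hearts, enriched on CD45, gated on CD11b and sorted as live CD14+/CD64+ cells, so any cell that entered these gates contributed RNA.

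Iso is a synthetic agonist of the β-adrenergic receptors. These receptors couple through the stimulatory G protein to adenylyl cyclase, and the cyclic AMP (cAMP) formed activates protein kinase A and the transcription factor CREB. Sustained infusion makes the heart hypertrophic and later dilated. Cardiac Mφ themselves carry β-adrenergic receptors, clear dying cells and their lipid, present antigen and release proteases and matrix proteins, and their number and state change while the heart remodels.

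Library totals ran from 88466559 to 101190984 counts in Ct and from 103926379 to 111180291 in the iso groups, without overlap (two-sided exact permutation test over 495 arrangements, p = 0.00202, the smallest this design allows). Between 14489 and 15305 genes were detected in Ct libraries and between 13600 and 15940 in iso libraries (p = 0.539 by the same exact permutation test), and HF library 1 stood apart with the fewest. The 9 markers of the sorted cells summed to 22930 to 25140 CPM (counts scaled to a common library size) in Ct and 22340 to 32720 CPM in iso libraries, and 0 of them were called. At an unadjusted p under 0.05, 3 of the 9 were higher (6.98% of all genes tested), among them Itgam, which encodes the gated CD11b (log2 fold change 0.78), and 0 were lower. The labels also hold library numbers from 1 to 6, each carried by 2 libraries, so the libraries may form 2 numbered sets of 6. The numbers allow 32 assignments, of which 4 keep neighbouring numbers of a group together, and neither labels nor methods say which holds or what the sets stand for. The titles also carry a code of unstated meaning that Ct libraries 1 and 2, Ct libraries 3 and 4, ECH libraries 3 and 4 and HF libraries 1 and 2 share, so the 12 libraries hold 8 codes, and the tests treat them as 12 separate samples.

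A set of 70 genes (0.479% of those tested) changed in the same direction at 14 and at 28 days. Of 24445 gene symbols 14608 passed the filter on low counts, and levels are CPM after TMM normalisation, which corrects for library composition. Against Ct, 45 genes were higher (0.308% of those tested) and 43 lower (0.294%) in iso Mφ at a false discovery rate (FDR) under 0.05 and a change of at least 2-fold in edgeR's quasi-likelihood test. Of these, 38 higher (0.260%) and 32 lower genes (0.219%) had also changed by at least 2-fold at an unadjusted p under 0.05 at each infusion time, and these are the shared genes described here. In the same fit over all 12 libraries, ECH against Ct gave 39 higher (0.267%) and 13 lower genes (0.0890%), 52 in all (0.356%), and HF against Ct 39 higher (0.267%) and 16 lower (0.110%), 55 in all (0.377%). Fits of only the ECH and Ct or only the HF and Ct libraries gave 8 and 41. Both infusion times were compared with the same 4 Ct libraries, so their values are not independent of each other. In 33 of the 38 higher and 24 of the 32 lower genes no iso library overlapped a Ct library, while over all genes tested 2.81% did not overlap, 1.30% lying wholly above and 1.51% wholly below Ct. The genes were chosen for a difference between the same libraries, so this count describes the choice and is no separate support. A stricter requirement, an FDR under 0.05 at each infusion time on its own, with a change of at least 2-fold, was met by 26 genes (0.178%), 22 higher (0.151%) and 4 lower (0.0274%). Adjusting the larger of both p values left 19 (0.130%), 16 higher (0.110%) and 3 lower (0.0205%). In bulk RNA, fewer cells of a type and less RNA per cell cannot be told apart.

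**Figure D1:**
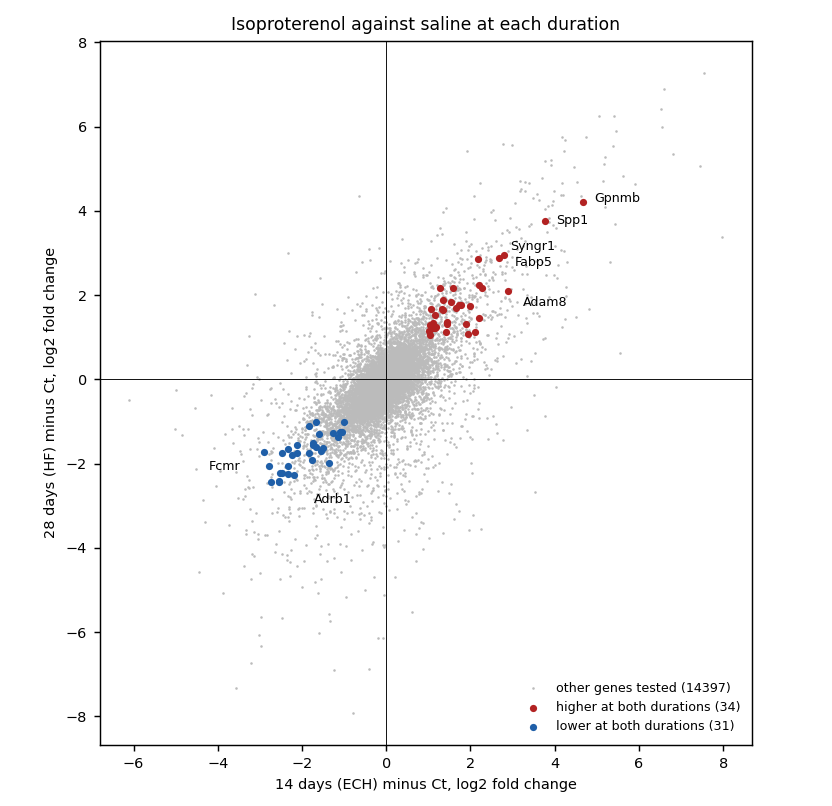
Fitted log2 fold change against Ct of each gene tested at 14 days (horizontal axis) and at 28 days (vertical axis), with the shared higher genes in red and the shared lower genes in blue. The plot holds 14462 genes, 65 of them shared, and leaves out 146 genes (5 of them shared) at 0 counts in every library of a group, and both axes use the same Ct libraries.

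Fabp5, Gpnmb and Spp1, of a list of genes of lipid-associated Mφ, had some of the larger increases. Fabp5 (chr3:10012548-10016607, plus strand, GRCm38), a cytosolic fatty acid carrier, measured 17.1, 14.7, 13.1 and 18.6 CPM in the Ct libraries and from 64.5 to 158 CPM in the iso libraries, with a median of 118 CPM. Every iso library was above every Ct library, and the level was 7.33-fold higher (log2 fold change 2.87 ± 0.27 SE, edgeR FDR = 0.00048). Gpnmb, a membrane glycoprotein of Mφ with loaded lysosomes, measured 7.45, 5.21, 1.30 and 30.5 CPM in Ct and 133 to 501 CPM in iso libraries, with a median of 219 CPM. Its lowest iso library stood above Ct library 4, the highest of the Ct group, and the log2 fold change was 4.45 (edgeR FDR = 0.0157). Without Ct library 4 it was 5.71, and the edgeR FDR was 0.0687 without Ct library 1. Spp1, which encodes the secreted phosphoprotein osteopontin, measured 64.9, 67.5, 18.7 and 45.4 CPM in Ct against 292 to 1121 CPM in iso, with a median of 618 CPM. The groups did not overlap, and Spp1 was 13.7-fold higher (log2 fold change 3.77 ± 0.53 SE, edgeR FDR = 0.00613). Lgals3, encoding the galactoside-binding lectin galectin-3, rose from 403 ± 75.3 CPM in Ct (SD, n = 4) to 829 ± 105 in ECH and 996 ± 106 in HF (edgeR FDR = 0.00184). Atp6v0d2, a subunit of the proton pump that acidifies lysosomes, rose from 9.41 CPM in Ct to 23.6 in ECH and 29.8 in HF (edgeR FDR = 0.0318), met the rule in 7 of 12 fits that each left out 1 library and had an FDR of 0.0991 without Ct library 1.

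Ctsd (chr7:142375911-142388038, minus strand), the aspartyl protease cathepsin D of the lysosome, measured 1001, 990.5, 989 and 1137 CPM in Ct and 1647 to 2703 CPM in iso libraries, with a median of 2404 CPM. All 8 iso libraries lay above the 4 Ct libraries and the level was 2.31-fold higher (edgeR FDR = 0.00138). Promoter windows from RefSeq, reaching from 250 bases before to 50 bases after the start on GRCm38.p6, were found for 27 of the 38 higher and 23 of the 32 lower genes, 33 windows in each direction. They were searched on both strands for the letters CACGTG (an E-box, read by basic helix-loop-helix proteins such as TFEB and MYC), TGACGTCA (the cAMP response element read by CREB) and for the glucocorticoid response element. The first and second of these have the letters ACGT in common. The E-box stood in 4 higher windows (12.1%) and in 0 lower windows, against 9.57% of 14244 windows of all genes tested. The cAMP response element was in 0 windows of shared genes against 2.88% of all windows, and the glucocorticoid response element was in 0 against 0.00702%. The windows of Ctsd and of Cdk20, a cyclin-dependent kinase that was also higher, are shown because among shared genes only these 2 hold the E-box more than once, and the capitals mark it. They are chr7:142387778-142388077 on the minus strand and chr13:64432303-64432602 on the plus strand. A match of letters is a description of the window and not a binding site.
Ctsd: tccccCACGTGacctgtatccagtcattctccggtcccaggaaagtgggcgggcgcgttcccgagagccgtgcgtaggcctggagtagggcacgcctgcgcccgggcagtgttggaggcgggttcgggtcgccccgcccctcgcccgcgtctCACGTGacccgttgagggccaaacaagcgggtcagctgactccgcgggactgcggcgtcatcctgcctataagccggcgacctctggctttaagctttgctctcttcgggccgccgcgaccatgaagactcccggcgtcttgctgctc
Cdk20: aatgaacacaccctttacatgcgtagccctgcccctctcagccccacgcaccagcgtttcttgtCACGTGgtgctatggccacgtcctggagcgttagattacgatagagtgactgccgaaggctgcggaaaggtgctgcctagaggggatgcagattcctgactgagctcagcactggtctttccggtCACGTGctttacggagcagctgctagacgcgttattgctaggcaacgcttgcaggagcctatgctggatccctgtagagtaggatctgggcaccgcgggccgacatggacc

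The list of lipid-associated Mφ genes, to which Fabp5, Gpnmb, Spp1, Lgals3, Ctsd and Atp6v0d2 belong, had more members higher than lower. All 20 of its genes were tested, 6 were shared and higher, 14 were higher at an unadjusted p under 0.05 (6.98% of all genes tested) and 0 were lower. The list was chosen with earlier results of these data known, so these counts are a description. Its median log2 fold change was 0.64, against a median of 0.00 over all genes tested. Its summed level overlapped, with 29670 to 34590 CPM in Ct, 33980 to 45630 in ECH and 30390 to 38500 in HF. Ctsb, a lysosomal cysteine protease, rose by less than the 2-fold limit (log2 fold change 0.50, edgeR FDR = 0.0385). Trem2, the lipid-sensing receptor of this state, did not pass edgeR's test (log2 fold change 0.17, FDR = 0.673), nor did Apoe (-0.14, FDR = 0.693) or Lpl (-0.25, FDR = 0.784). In the wider list of lipid uptake and storage Fabp5 was the only shared gene. Of the 24 genes of that list, 6 were higher and 1 lower at an unadjusted p under 0.05 (6.98% and 9.13% of all genes).

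Of the list of proteases and matrix proteins, 6 genes were shared and higher. Adam8 (chr7:139978932-139992562, minus strand), a membrane-bound metalloprotease-disintegrin of leukocytes, had the lowest FDR of all genes tested. It measured 39.7, 40.05, 38.5 and 32.0 CPM in Ct, 266, 206, 414 and 229 CPM in ECH and 110, 170, 167 and 192 CPM in HF. Its lowest iso library, HF 1, was still well above every Ct library, and the pooled level was 5.62-fold higher (log2 fold change 2.49 ± 0.21 SE, edgeR FDR = 0.000393). Mmp14 (chr14:54431612-54445364, plus strand), a membrane-anchored matrix metalloproteinase, measured 11.6, 14.6, 8.43 and 10.3 CPM in Ct and 32.4 to 80.1 CPM in iso libraries, with a median of 52.9 CPM and no overlap (4.66-fold higher, edgeR FDR = 0.00138). Fn1, encoding fibronectin, measured 90.5, 72.2, 151 and 87.6 CPM in Ct and 171 to 625 CPM in iso libraries (edgeR FDR = 0.0328). It stayed under an FDR of 0.05 in 5 of the 12 fits that each left out 1 library, with 0.11 without Ct library 1. Thbs1, the matricellular glycoprotein thrombospondin 1 and also a member of the list of cAMP and CREB targets, measured 91.6, 94.4, 51.8 and 53.0 CPM in Ct and 86.8 to 343 CPM in iso libraries. HF library 1 overlapped Ct (edgeR FDR = 0.0287), and Thbs1 met the rule in 5 of those 12 fits. Mmp19 and the Mφ elastase Mmp12 were the other shared members of the list, with means of 5.04 and 93.7 CPM in Ct, 19.9 and 227 in ECH, and 16.8 and 425 in HF. Mmp12 overlapped Ct and met the rule in 2 of 12 fits without 1 library, and Mmp19 in 6 of 12. Of 27 matrix and protease genes tested, 6 were shared and higher, 10 were higher at an unadjusted p under 0.05 (6.98% of all genes) and 2 lower (9.13% of all genes). Markers of other cell types are given beside them. Of 12 fibroblast markers 2 were higher and 0 lower at an unadjusted p under 0.05, Sparc (log2 fold change 0.77) and Postn (2.70), with 0 called, and the list's median was 0.81. The fibroblast list summed to 42.2 to 223 CPM in Ct, 125 to 529 in ECH and 106 to 283 in HF. Of 5 platelet and erythroid markers tested, the platelet chemokine Ppbp was higher at an unadjusted p under 0.05 (log2 fold change 1.83), with sums of 9.93 to 19.9 CPM in Ct, 8.20 to 68.5 in ECH and 48.2 to 92.2 in HF, and the globin genes were at 0. The part of these cells in the matrix genes was not tested.

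**Figure D2:**
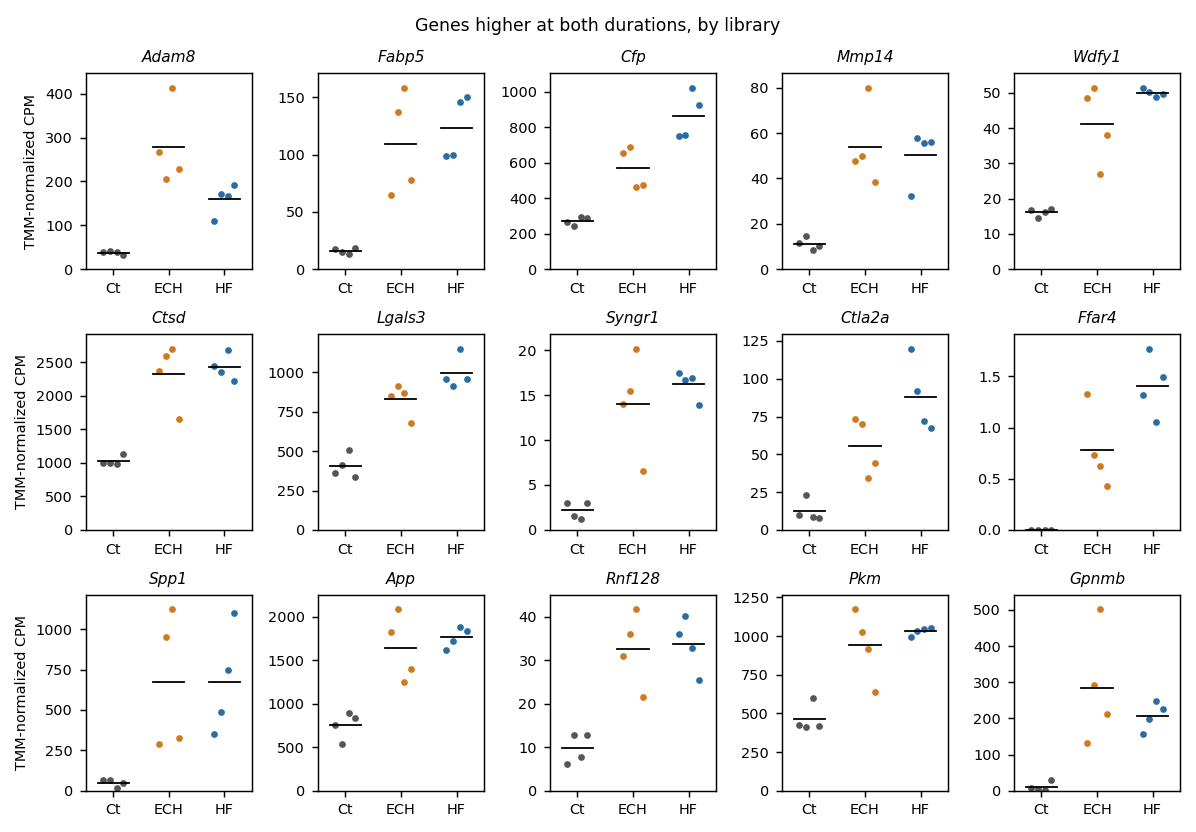
TMM-normalized CPM of 15 shared higher genes in each library, grouped as Ct, ECH (14 days) and HF (28 days), with 1 point per library and a line at the mean of each 4, and vertical axes that start at 0. No iso point overlaps a Ct point in any of the 15 panels, and the 4 Ct points of Ffar4 are at 0.

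Among membrane receptors and carriers, 4 shared genes had 0 counts in every Ct library. They passed the low-count filter only through iso libraries, so that they could only be tested as higher, and they are counted among the 38. Ffar4 (chr19:38097071-38114263, plus strand), a receptor for long-chain fatty acids, measured from 0.432 to 1.77 CPM in iso libraries with a median of 1.19 CPM. Against the limit of 3 counts over the Ct group, 0.00773 CPM, it was at least 142-fold higher. By the same limit Htr7, a serotonin receptor that couples to the stimulatory G protein, was at least 134-fold higher, Slc16a9, a monocarboxylate transporter relative, at least 149-fold, and Fabp7, another fatty acid carrier, at least 100.1-fold. These limits cover counting error only. Iso libraries measured 0.277 to 2.05 CPM for Htr7, 0.261 to 3.29 CPM for Slc16a9 and 0.222 to 1.96 CPM for Fabp7. Fabp7 met the rule in 10 of 12 fits without 1 library (edgeR FDR = 0.0665 without Ct library 1). Ffar4, Htr7 and Slc16a9 met it in all 12. The lectin receptors Clec4d and Clec4n, which recognise microbial and other glycolipids and glycans, were also shared and higher, at 30.3 and 177 CPM in Ct, 113 and 382 in ECH, and 75.6 and 448 in HF, and met the rule in 10 and 8 of 12 fits without 1 library.

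Pkm and Pfkl, the pyruvate kinase and the liver-type phosphofructokinase of glycolysis, were shared and higher. Pkm (chr9:59656368-59679375, plus strand) measured 423, 412, 599 and 421 CPM in Ct and 636 to 1172 CPM in iso libraries, with a median of 1032 CPM. The lowest iso library, ECH 4, lay just above Ct library 3 (2.12-fold higher, edgeR FDR = 0.00949). Pfkl measured 46.8, 37.7, 64.0 and 55.8 CPM in Ct and 77.3 to 129 CPM in iso libraries, also without overlap (2.07-fold higher, edgeR FDR = 0.0157, and 0.0687 without Ct library 1). Pkm and Pfkl met the rule in 7 and 8 of 12 fits without 1 library. Of 20 glycolysis genes, 14 were higher and 0 lower at an unadjusted p under 0.05 (6.98% and 9.13% of all genes), and the median log2 fold change was 0.57. Pgam1, Tpi1 and Gapdh had an edgeR FDR under 0.05 but stayed below 2-fold, with log2 fold changes of 0.95, 0.74 and 0.85. The glucose transporter Slc2a3 (-0.54, FDR = 0.514) and the hexokinase Hk2 (-0.41, FDR = 0.527) did not pass edgeR's test.

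Cfp (chrX:20925454-20931555, minus strand), encoding properdin, the positive regulator of the alternative complement pathway, measured 262, 244, 292 and 288 CPM in Ct and 463 to 1022 CPM in iso libraries, with a median of 718 CPM. All iso libraries were above Ct (2.58-fold higher, edgeR FDR = 0.00138). Cd55, which dissociates complement convertases, moved the other way, with 19.8, 46.6, 10.2 and 30.7 CPM in Ct and 3.45 to 11.5 CPM in iso libraries (edgeR FDR = 0.0275). Ct library 3 lay within the iso range, and the edgeR FDR was 0.0882 without Ct library 2. Of 17 complement genes tested, these 2 were the shared ones (0.479% of all genes). At an unadjusted p under 0.05, 5 of the 17 were higher and 2 lower (6.98% and 9.13% of all genes).

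The remaining named increases had no common list. Wdfy1, an endosomal adaptor that binds phosphoinositides, rose from 16.1 ± 1.19 CPM in Ct (SD, n = 4) to 41.2 ± 11.1 in ECH and 50.1 ± 1.10 in HF (edgeR FDR = 0.00138). App, the amyloid precursor protein, rose from 756 ± 155 to 1639 ± 384 and 1764 ± 116 CPM (edgeR FDR = 0.00706). The E3 ubiquitin ligase Rnf128 rose from 9.86 ± 3.53 to 32.5 ± 8.54 and 33.7 ± 6.23 CPM (edgeR FDR = 0.00794). Ctla2a, a cysteine protease inhibitor with a near-identical neighbour between which reads may be split, rose from 12.2 ± 7.14 to 55.4 ± 19.02 and 87.9 ± 23.9 CPM (edgeR FDR = 0.00505). Syngr1, a vesicle membrane protein, rose from 2.19 ± 0.948 to 14.1 ± 5.65 and 16.2 ± 1.61 CPM (edgeR FDR = 0.00358). Bhlhe40, a transcriptional repressor tied to the clock, measured 30.2 ± 10.3 CPM in Ct, 67.6 ± 28.3 in ECH and 87.7 ± 15.8 in HF, with overlap (edgeR FDR = 0.0353, and 0.114 without Ct library 1), and met the rule in 3 of 12 fits without 1 library. The other shared higher genes were 2010111I01Rik, Kcnn4, Emb, Ecm1, AA467197, Stat4, Sh3bgrl2, Fam198b, Galnt6 and Wee1, whose log2 fold changes lay between 1.20 and 2.22.

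Among the decreases was a receptor for the infused drug itself. Adrb1 (chr19:56722199-56733113, plus strand), the β1-adrenergic receptor, measured 12.3, 33.0, 15.3 and 18.6 CPM in Ct, 7.76, 6.197, 7.75 and 9.01 CPM in ECH and 3.73, 5.28, 5.60 and 5.25 CPM in HF. All 8 iso libraries lay below the 4 Ct libraries, of which Ct library 2 was the highest, and the level was 3.20-fold lower (log2 fold change -1.68 ± 0.25 SE, edgeR FDR = 0.00789). The decrease stayed under an FDR of 0.05 in all 12 fits without 1 library, but the edgeR FDR was 0.0993 and 0.268 with the 2 assignments of library numbers that keep all Ct libraries in 1 set as a covariate. Adrb3, another receptor of the family, had 0 counts in all libraries. Of the 28 genes of the β-adrenergic and cAMP pathway tested, Adrb1 was the only one called, while 4 were higher and 4 lower at an unadjusted p under 0.05 (6.98% and 9.13% of all genes). The 4 higher ones were the adenylyl cyclase Adcy3 (log2 fold change 1.70), the phosphodiesterases Pde3b (0.49) and Pde8a (0.59) and the regulatory kinase subunit Prkar1a (0.37), and the lower ones beside Adrb1 were the receptor kinase Grk5 (-0.90), the phosphodiesterase Pde4b (-0.48) and the adenylyl cyclase Adcy7 (-0.24). Of 20 cAMP and CREB target genes, 2 were higher and 8 lower at an unadjusted p under 0.05 (6.98% and 9.13% of all genes), and Thbs1 was the only one called.

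Several decreases were in genes of B lymphocytes. Cd79a (chr7:24897381-24902197, plus strand), a signalling chain of the B cell receptor, measured 62.9, 178, 33.0 and 85.7 CPM in Ct and 6.04 to 27.7 CPM in iso libraries, with a median of 16.6 CPM. The groups did not overlap, Ct library 2 was the highest and the level was 5.20-fold lower (edgeR FDR = 0.0174). Fcmr, the receptor for the Fc part of IgM, measured 29.1, 60.0, 21.9 and 31.4 CPM in Ct and 4.78 to 13.3 CPM in iso libraries (4.85-fold lower, edgeR FDR = 0.00505). Pou2f2, the octamer-binding transcription factor Oct-2, fell from 62.2 ± 12.4 CPM in Ct (SD, n = 4) to 29.8 ± 3.61 in ECH and 26.2 ± 3.95 in HF (edgeR FDR = 0.00324). Unlike in Cd79a and Fcmr, Ct library 2 was not the highest for Pou2f2, with 58.5 CPM against 75.9 CPM in Ct library 4. Ly6d, Ms4a1 (CD20) and Fcer2a (CD23) were shared and lower too, with log2 fold changes of -2.58, -2.34 and -2.11. Without Ct library 2 the log2 fold change of Ly6d was -1.78 and its edgeR FDR was 0.123. Ms4a1 and Fcer2a each met the rule in 3 of 12 fits without 1 library.

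Of the 12 genes of the B cell marker list 9 were in the files, all 9 were tested, 5 were shared and lower and 8 were lower at an unadjusted p under 0.05 (9.13% of all genes). Their summed level was 209.8, 608, 122 and 314 CPM in Ct, 47.7 to 103 CPM in ECH and 66.7 to 101 CPM in HF, so that every iso library lay below every Ct library and Ct library 2 was the highest. None of the 9 markers was at 0 in all libraries. The T and NK cell list had 6 of 13 genes lower at an unadjusted p under 0.05 and 0 called, with sums of 32.3 to 122 CPM in Ct and 15.1 to 62.9 CPM in iso libraries. The part that lymphocyte RNA had in the lower genes was not tested. Ct library 2 was the highest Ct library for 21 of the 32 lower genes and the lowest for 16 of the 38 higher ones, leaving aside the 4 genes at 0 in all Ct libraries. Without it, 55 genes met the rule, 38 higher and 17 lower, among them 27 of the 38 and 12 of the 32.

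**Figure D3:**
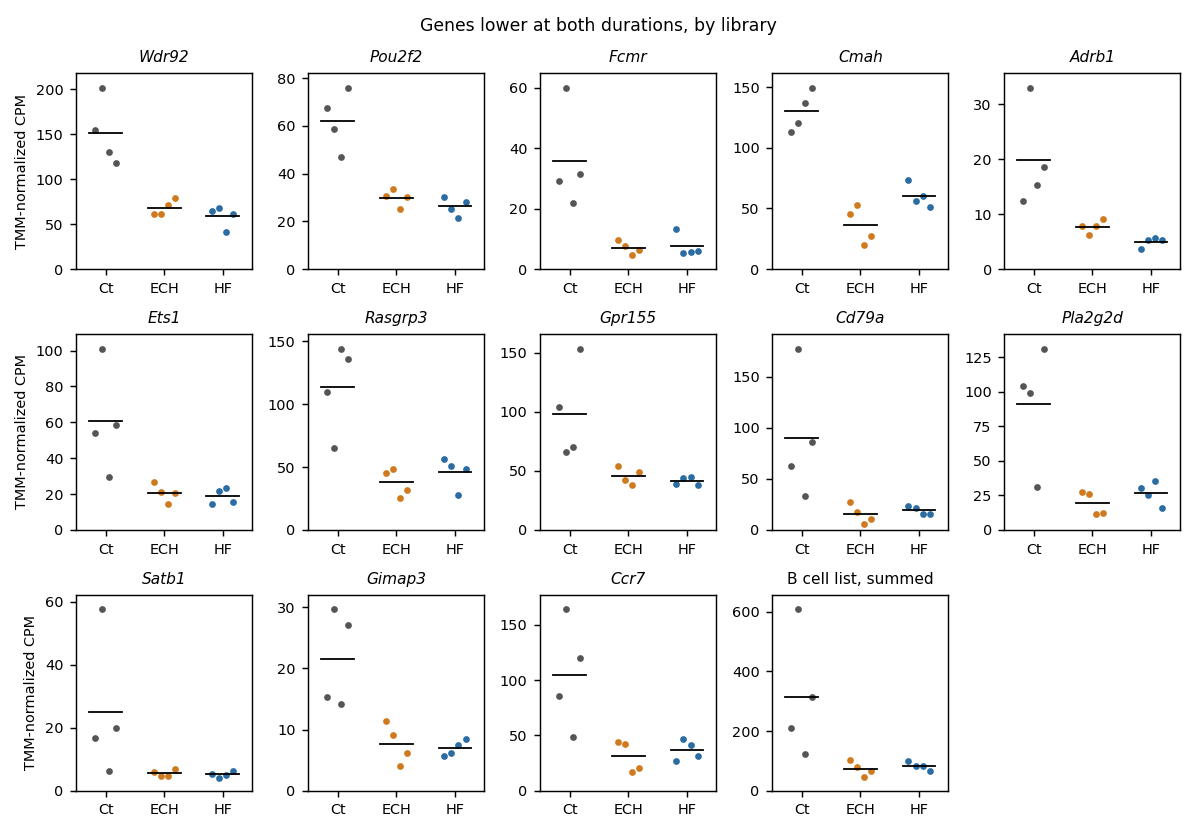
TMM-normalized CPM of named shared lower genes and the summed CPM of the 9 B cell markers in each library, grouped as Ct, ECH (14 days) and HF (28 days), with 1 point per library, a line at the mean of each 4, and vertical axes that start at 0. Iso libraries lie below Ct in every panel except Pla2g2d and Satb1, in which 1 Ct point each overlaps them.

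Ets1, Satb1, Gimap3 and Ccr7 were shared and lower as well. Ets1, a transcription factor of lymphocytes, measured 53.9, 101, 29.3 and 58.5 CPM in Ct and 14.2 to 26.8 CPM in iso libraries, without overlap (3.09-fold lower, edgeR FDR = 0.0157). Satb1, a chromatin organiser of thymocytes, measured 16.8, 57.5, 6.26 and 19.8 CPM in Ct and 4.16 to 6.85 CPM in iso libraries. Ct library 3 lay within the iso range, and the edgeR FDR of 0.0237 became 0.0553 without Ct library 2. Gimap3, a GTPase of lymphocyte survival, and Ccr7, the chemokine receptor that guides lymphocytes and dendritic cells to lymph nodes, were 2.96-fold and 3.10-fold lower without overlap (edgeR FDR = 0.0237 and 0.0275), and without Ct library 2 their edgeR FDR was 0.0604 and 0.088. Of 12 dendritic cell genes Ccr7 was the one called, with 2 higher and 2 lower at an unadjusted p under 0.05 (6.98% and 9.13% of all genes). Their summed level was 167 to 329 CPM in Ct and 135 to 234 CPM in iso libraries.

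Several shared decreases lay in genes that are not lymphocyte markers. Wdr92 (chr11:17182107-17233796, plus strand), a co-chaperone subunit, had the lowest FDR among them, with 155, 202, 130 and 118 CPM in Ct and 41.5 to 78.6 CPM in iso libraries (2.39-fold lower without overlap, edgeR FDR = 0.00324). Cmah, the hydroxylase that forms the sialic acid Neu5Gc, measured 113, 121, 137 and 149 CPM in Ct and 19.8 to 73.4 CPM in iso libraries (2.78-fold lower without overlap, edgeR FDR = 0.00706). Rasgrp3, a guanine nucleotide exchange factor for Ras, was 2.72-fold lower, and Gpr155, a lysosomal cholesterol sensor, 2.25-fold lower (edgeR FDR = 0.0157 for both, with 0.0527 for Rasgrp3 without Ct library 4 and 0.0665 for Gpr155 without Ct library 1). Ednrb, the endothelin B receptor and a gene of resident cardiac Mφ, measured 340, 275, 648 and 390 CPM in Ct and 72.8 to 287 CPM in iso libraries. HF library 2 overlapped Ct library 2, and the call held in 5 of 12 fits without 1 library (edgeR FDR = 0.032, and 0.0751 without Ct library 4). Il6, the cytokine, measured 24.2, 30.4, 62.7 and 9.71 CPM in Ct and 5.37 to 13.1 CPM in iso libraries. It overlapped, and its FDR of 0.0429 stayed under 0.05 in 1 of 12 fits without 1 library. Pla2g2d, a secreted phospholipase, was 4.03-fold lower (edgeR FDR = 0.0174, and 0.0675 without Ct library 1). Other shared lower genes, listed without regard to cell type, were Mrgpra6, Plppr4, Gimap1, Ptchd1, Kdm6b, Ltb, Mzb1, Ptprcap, Plekhb1, Slc9a3r2, Gpr18 and Fcrl1. Plekhb1 had 0 counts in every HF library and passed the filter only through Ct.

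Immediate early genes, which are also induced when tissue is digested, had more members lower than higher. Of 22 tested, 16 were lower and 0 higher at an unadjusted p under 0.05 (9.13% and 6.98% of all genes), the median log2 fold change was -0.70, and 0 were called, with 1 at an edgeR FDR under 0.05. Their summed level ran from 51400 to 69280 CPM in Ct, from 23480 to 53960 in ECH and from 26890 to 44580 in HF, and ECH library 1 lay above Ct libraries 3 and 4. Btg2, an anti-proliferative gene of this list, measured 3381, 2840.3, 2839.9 and 2458 CPM in Ct and 1044 to 2294 CPM in iso libraries without overlap (log2 fold change -0.85, edgeR FDR = 0.04997, short of the fold limit). Fosb, a subunit of the AP-1 transcription factor, measured 313, 742, 208 and 216 CPM in Ct and 36.3 to 174 CPM in iso libraries and did not pass the test (edgeR FDR = 0.0548). The part of tissue handling in these values was not tested. Of 21 inflammatory cytokine and feedback genes, 6 were lower and 1 higher at an unadjusted p under 0.05, with Il6 the one called. Neutrophil markers had 7 of 12 genes lower and 0 called, with sums of 465 to 2048 CPM in Ct and 178 to 1501 CPM in iso libraries.

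**Figure D4:**
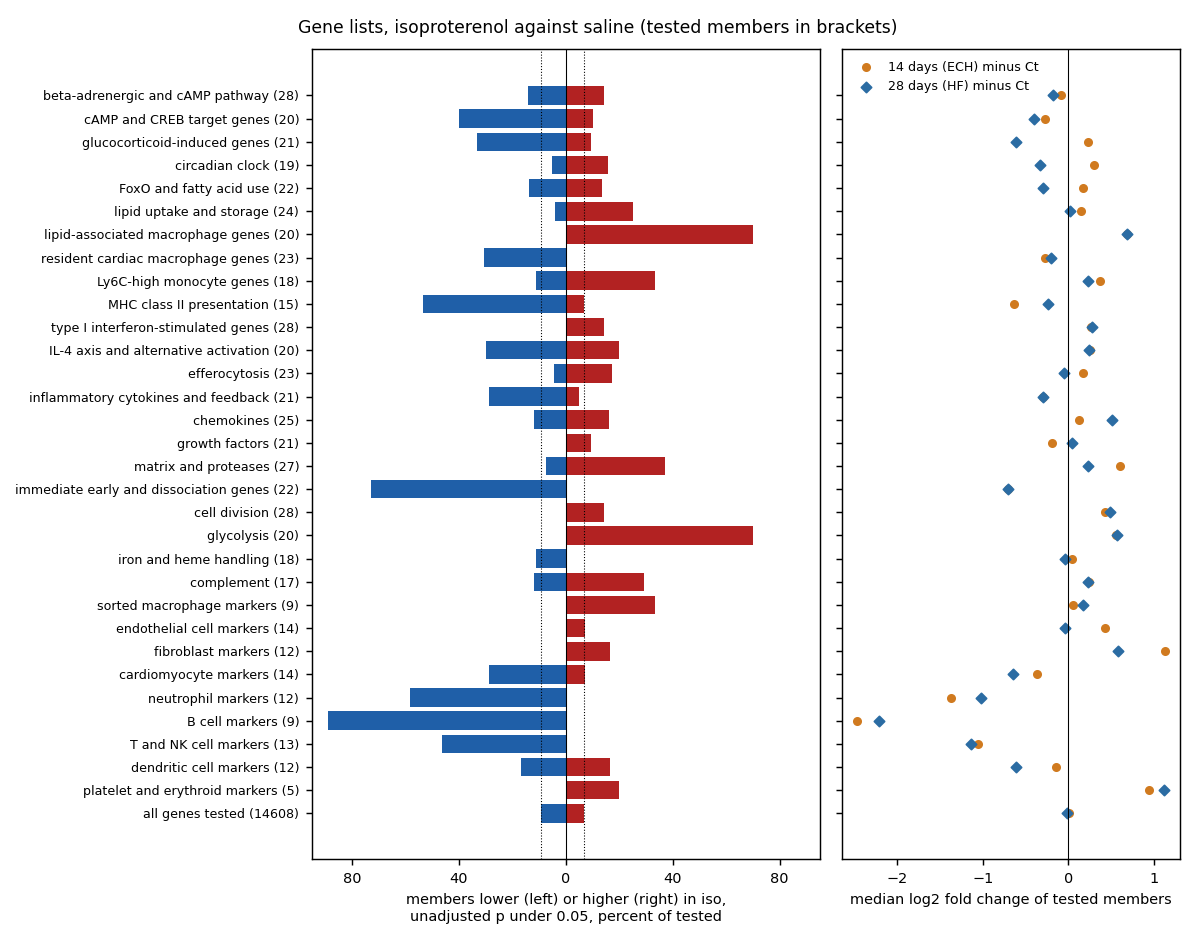
Gene lists in iso against Ct, with the percent of tested members lower (left, blue) or higher (right, red) at an unadjusted p under 0.05 and dotted lines at the values of all genes tested (9.13% and 6.98%), and the median log2 fold change of each list at 14 days (circles) and 28 days (diamonds). Lipid-associated Mφ genes and glycolysis (14 of 20 members each) lie farthest to the right, and B cell markers (8 of 9) and immediate early genes (16 of 22) farthest to the left. The lists were chosen with earlier results of these data known.

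The direct comparison of HF with ECH called 0 of 14608 genes in edgeR's quasi-likelihood test, with 1165 at an unadjusted p under 0.05 (7.98%; 2.81% higher and 5.17% lower in HF), while DESeq2 called 47 and edgeR's likelihood ratio test 48. With library sets as a covariate, 1 of 4 assignments, in which ECH libraries 1 and 2 share a set with Ct, gave 272 calls, 124 higher and 148 lower in HF, and the other 3 gave 0. Among the 70 shared genes, 34 had the larger change at 28 days, 23 of the 38 higher and 11 of the 32 lower. At an unadjusted p under 0.05, 7 of the 70 shared genes differed between the infusion times, against 7.98% of all genes tested. At an FDR under 0.05, 0 did. Adam8 was lower at 28 than at 14 days (log2 difference -0.80, 95% interval -1.28 to -0.33) and Cfp was higher (0.60, 0.25 to 0.95). The edgeR FDR of this difference was 0.491 for both, and the intervals are unadjusted. Thbs1 (-0.86, -1.54 to -0.18) and Cmah (0.72, 0.17 to 1.27) had the smaller change at 28 days, and Galnt6, Mmp12 and Plekhb1 were the other 3. For Fabp5 the interval of the difference reached from -0.40 to 0.74 and for Spp1 from -1.07 to 1.07, so no difference was detectable for either with 4 libraries a group. For Adrb1 the log2 difference was -0.63 with an interval from -1.27 to 0.01.

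With library sets as a covariate, the count of shared genes depended on the assignment. In the first and second assignments all 4 Ct libraries share a set, with ECH libraries 1 and 2 or with HF libraries 1 and 2, and 31 genes (25 higher, 6 lower) and 3 genes (all higher) met the rule. In the remaining 2 the Ct libraries are divided, and 69 genes (42 higher, 27 lower) and 66 genes (39 higher, 27 lower) did, 57 and 62 of them among the 70. Of these, the third keeps all ECH libraries with Ct libraries 1 and 2, and the last divides each group evenly, and both were chosen after seeing the data. With libraries of the same title code summed, also chosen after seeing the data, 2 Ct, 3 ECH and 3 HF samples remained and 39 genes met the rule (24 higher, 15 lower), 31 of them among the 70. Adam8 and Fabp5 had an FDR under 0.05 in all 26 alternatives run beside the reported fit, in which the chosen genes were tested on the libraries that chose them.

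**Figure D5:**
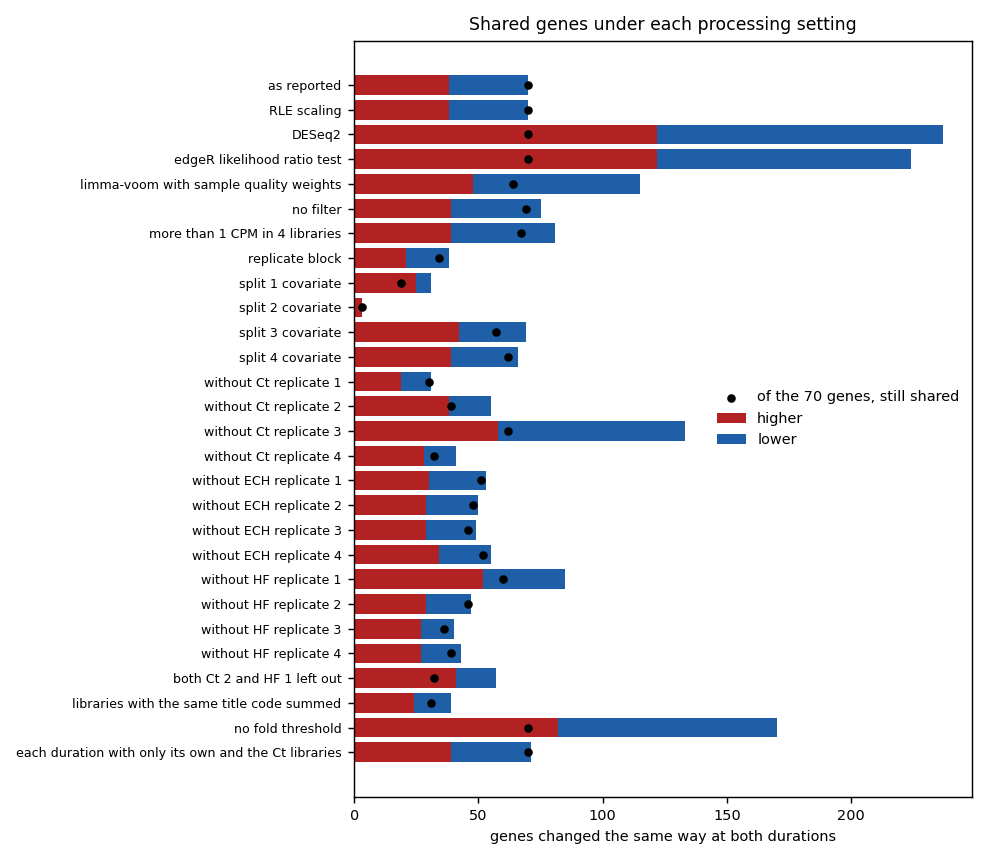
Number of genes that met the rule for a shared change under each processing setting, higher in red and lower in blue, with a black point at how many of the 70 genes were among them, and split 1 to 4 naming the assignments of library sets. The number ran from 3 with the second assignment of library sets as a covariate to 237 with DESeq2, and leaving out Ct library 1 or Ct library 3 gave 31 or 133.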

How the data were processed

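RNA was amplified with the SMART-Seq v4 kit and sequenced on an Illumina NextSeq. Per the labels and methods, the authors checked reads with FastQC, trimmed them with Trimmomatic, aligned them to mm10 with TopHat2 and counted them per gene with featureCounts, and the deposited values are raw counts per gene symbol. Tool versions, the annotation and the strand setting of the counting were not stated, so overlapping genes and near-identical copies may share reads. Gene positions are those of GENCODE on GRCm38 (mm10).

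Counts were filtered with filterByExpr, normalised by TMM and fitted in edgeR 4.0.16 (R 4.3.3) by the quasi-likelihood method, with 1 mean per group over all 12 libraries, and p values were adjusted by Benjamini-Hochberg. The iso contrast is the mean of ECH and HF minus Ct. The biological coefficient of variation was 60.8%. Depth is given with the libraries in the report. Alternatives were DESeq2 1.42.0, edgeR's likelihood ratio test, limma 3.58.1 (voom), other scaling and filters, library sets or replicate number in the model, and fits that left out libraries. The scripts were tested on simulated counts.

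Named genes were the 14 higher and 14 lower shared genes with the lowest FDR, leaving out predicted models and genes under 1 CPM on the higher side. For each of 31 gene lists, up to 3 shared members were added, otherwise up to 2 called members or, failing these, the 2 with the lowest p, together with the sort markers Cd14, Fcgr1, Itgam and Ptprc. Any other gene given with values was chosen after its values were seen, among them Gpnmb, Htr7, Slc16a9, Fabp7, Cdk20, Atp6v0d2, Mmp12, Mmp19, Clec4d and Clec4n. Some named genes are not reported here. The members and the lists were chosen with earlier results of these data known. The replicate numbers of the titles did not pair the libraries. Fits with the 2 assignments of library sets that divide Ct, and with libraries of the same title code summed, were chosen after seeing the data.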

Additional observations from a re-analysis of the deposited data

Results flagged for a closer look

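In 13 of 225 groups of 4 libraries examined, 1 library stood apart from the other 3 by Dixon's criterion, and chance alone gives about 1 in 20. The number of detected genes was 13600 in HF library 1 and 15084 to 15211 in the other HF libraries. In the same library Mmp14 measured 32.4 CPM against 55.8 to 58.0 CPM, Adrb1 3.73 against 5.25 to 5.60 CPM, Fcmr 13.3 against 5.30 to 6.09 CPM, Ly6d 7.88 against 4.79 to 4.96 CPM, and Postn, a matrix protein of fibroblasts, 0 against 8.37 to 12.3 CPM. In Ct, Ctsd measured 1137 CPM in library 4 against 989 to 1001 CPM. Pkm measured 599 CPM in Ct library 3 against 412 to 423 CPM. Ccl24, an eosinophil chemokine, measured 285 CPM in Ct library 3 against 450.4 to 491 CPM. Tfrc, the transferrin receptor, measured 61.1 CPM in Ct library 2 against 74.0 to 75.8 CPM. In ECH, Cd14 measured 2993 CPM in library 1 against 2139 to 2247 CPM. Apln, the ligand of the apelin receptor, was at 0 in ECH library 2 against 0.691 to 1.09 CPM. Ccl11 measured 0.0179 CPM in HF library 4 and 0 in the other HF libraries.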

How the results depend on the processing

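Over the named genes, 1588 values under an alternative kept their direction and their side of the threshold, 243 lost the threshold, 61 gained it and 3 turned. These were Ptprc at 0.17 on the log2 scale with the first assignment of library sets (-0.14 as reported), and Irf7 at -0.14 (0.55) and Cd14 at 0.11 (-0.18) with the second. Counts of calls moved far more, and the cause was not tested. For iso against Ct (88), ECH against Ct (52), HF against Ct (55), HF against ECH (0), shared genes (70), genes called at both durations (26) and genes by the larger p (19), DESeq2 gave 333, 248, 339, 47, 237, 127 and 90, and the likelihood ratio test 320, 218, 273, 48, 224, 105 and 75. In the first 3 and the fifth and sixth of these, limma-voom gave 148, 84, 130, 115 and 45. With the first assignment, ECH against Ct gave 22, HF against Ct 208, HF against ECH 272, shared genes 31, both durations 15 and the larger p 2, and iso against Ct gave 60, with 43 higher and 17 lower. With the second, iso against Ct gave 3, ECH against Ct 0, HF against Ct 16, shared genes 3, both durations 0 and the larger p 0. With the third, chosen after seeing the data, HF against Ct gave 6, both durations 4 and the larger p 0, and iso against Ct 116, with 71 higher and 45 lower. With the fourth, all 7 counts stayed within 1.5 times of those reported. With libraries of the same title code summed, also chosen after seeing the data, iso against Ct gave 41 (26 higher, 15 lower), ECH against Ct 12, HF against Ct 20, shared genes 39, both durations 8 and the larger p 8. Without Ct library 2 and HF library 1 the larger p gave 8. ECH against Ct gave 8 in a fit of its own, 1 with ECH libraries 1 and 2 only, and HF against Ct 1 with HF libraries 1 and 2 only. Without a fold limit, iso against Ct gave 172 and shared genes 170, and with an unadjusted p it gave 677.

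Leaving out 1 library gave 36 to 169 genes for iso against Ct, 11 to 95 for ECH against Ct, 15 to 103 for HF against Ct, 0 for HF against ECH, 7 to 51 for both durations and 2 to 20 for the larger p. Shared genes numbered 31 without Ct library 1, 133 without Ct library 3, 41 without Ct library 4, 40 without HF library 3 and 43 without HF library 4. In all 12 such fits 14 of the 38 higher and 6 of the 32 lower genes met the rule.

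With the replicate number of the titles as a replicate block, iso against Ct gave 44, ECH against Ct 22, HF against Ct 18, shared genes 38, both durations 12 and the larger p 5. Same-numbered libraries correlated between -0.0701 and 0.0687 over 12 pairs, and 1 of 12 libraries correlated best with its own number, so the numbers were not taken to pair the libraries. Genes at 0 counts in Ct are limited by the 3-count floor.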

Other observations

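A further 18 genes were called in iso Mφ without meeting the rule at each infusion time, 7 higher and 11 lower. Among the higher ones were Ms4a4a and Ms4a6d, membrane proteins of Mφ, at means of 434 and 281 CPM in Ct, 1487 and 659 in ECH, and 864 and 515 in HF (edgeR FDR = 0.0249 and 0.0177). Havcr2, the inhibitory receptor TIM-3, had means of 32.8, 82.7 and 63.4 CPM (edgeR FDR = 0.0287), and the alanine transaminase Gpt2 had 27.1, 77.0 and 53.8 CPM (edgeR FDR = 0.00646). Among the lower ones were Timd4, a phosphatidylserine receptor of resident Mφ, with means of 166 CPM in Ct, 54.0 in ECH and 87.1 in HF (edgeR FDR = 0.0287), and the co-stimulatory receptor Cd40 with 43.3, 22.1 and 19.3 CPM (edgeR FDR = 0.0105). The iron genes Tfrc and Cp were lower too, with means of 71.4, 22.5 and 47.2 CPM and of 105, 77.7 and 35.1 CPM (edgeR FDR = 0.0466 and 0.0337). Tfrc and Cp each stayed under an FDR of 0.05 in 4 of 12 fits without 1 library. Timd4 did so in 6 of 12 and Cd40 in all 12.

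Other lists had few or no shared genes. Of 15 genes of MHC class II presentation, 8 were lower and 1 higher at an unadjusted p under 0.05 (9.13% and 6.98% of all genes) and 0 were shared, with a summed level of 27270 to 33170 CPM in Ct, 17760 to 27630 in ECH and 21030 to 31650 in HF. At the same threshold, of 23 resident cardiac Mφ genes 7 were lower and 0 higher, and of 18 genes of Ly6C-high monocytes 6 were higher and 2 lower. Of 28 genes of cell division and of 28 stimulated by type I interferon, 4 were higher and 0 lower in each, and 0 were called.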
